A study of Glycine max with 102 samples.

Results

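Cryptochromes are the blue-light receptors of plants, and soybean carries 4 CRY1 and 3 CRY2 genes. These 7 genes, out of 56044 gene IDs in the expression table, were taken by their IDs: CRY1a (Glyma.04G101500), CRY1b (Glyma.06G103200), CRY1c (Glyma.14G174200), CRY1d (Glyma.13G089200), CRY2a (Glyma.10G180600), CRY2b (Glyma.02G005700) and CRY2c (Glyma.20G209900). The table holds no gene names. The pairing of name and ID rests on the chromosome in the ID, since RefSeq annotation of Glycine max v4.0 names 7 cryptochromes, each on a chromosome of its own, while none of its identifiers matched an ID of the table (0 of 56044). The names CRY2b and CRY2c may stand the other way round in other sources, so their values belong to the IDs given here. All 7 passed the filter on low values, a mean of at least 1 FPKM over all libraries, as did 30101 genes in all.

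RNA was sequenced from leaves of 18-day-old soybean plants at the V2 stage, with 1 library for each of 102 accessions. They were 41 parents of the soyNAM population, made up of 18 elite lines, 15 LG lines, bred from diverse ancestry, and 8 plant introductions, called PI lines, and they were set against 61 milestone cultivars. The elite, LG and PI classes were read from the public family numbers in the column names, not from the labels of single samples, and the column Parent was counted as elite. No treatment, batch, date or hour of harvest is labelled, so collection and batch cannot be told apart. Values are FPKM, fragments scaled to transcript length and to the mapped fragments of the library, which are per length and can be compared between genes. Since whole leaves were sampled, fewer cells of a type and less RNA per cell cannot be told apart.

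Cryptochromes are flavoproteins that change their partners when they absorb blue light. In Arabidopsis, CRY1 is known mainly for restraining stem elongation in light and CRY2 for day-length control of flowering, and both act in part by inhibiting the COP1/SPA ubiquitin ligase. They also pass light signals to the circadian clock, whose dawn phase is marked by MYB repressors of the LHY family. Soybean is an ancient polyploid, so most of its genes have duplicated copies, and reads of near-identical copies can be shared between them in quantification.

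A group of 5 soyNAM libraries (Parent, NAM10, NAM06, NAM31 and NAM11) stood apart, with the lowest median Spearman correlations with the other libraries and low levels of the dawn gene LHY2b (Glyma.03G261800). LHY2b had 0.196 FPKM in Parent and 0.239 FPKM in NAM10, while NAM06, NAM31 and NAM11 had 36.4, 40.8 and 49.7 FPKM; the median of the other 36 soyNAM libraries was 221 FPKM. Low LHY2b was not particular to the 5, since NAM48 had 46.1 FPKM and NAM29 53.97 FPKM. Among milestone cultivars library 54 had the lowest LHY2b level, 150 FPKM, and the lowest median correlation, 0.835. Summed FPKM ran from 459817 to 819901 in soyNAM libraries, against 529002 to 864712 in milestone libraries. The 3 Rubisco small subunit genes used as leaf markers summed to 5261 to 15942 FPKM in the 5 libraries. Medians were 18842 FPKM over soyNAM and 24016 FPKM over milestone libraries. Sums in that range were not particular to the 5, with 8734 FPKM in NAM48 and 11604 FPKM in milestone library 60. Milestone library 47 had a sum of 0 FPKM. The part of these markers in the results was not tested. Of these markers, the Rubisco small subunit gene Glyma.13G046200 had a median of 18655 FPKM and reached 1 FPKM in 101 libraries, being listed at 0 in 1 milestone library. Glyma.19G046600 and Glyma.19G046800 reached 1 FPKM in 43 and 42 libraries and had medians of 0 FPKM. The highest level of any seed storage or leghemoglobin gene in any library was 2.68 FPKM.

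The order of the cryptochromes by level differed between the collections. By median, soyNAM parents ranked CRY1b (45.6 FPKM), CRY2c (45.3), CRY2a (35.3), CRY1c (33.1), CRY1d (32.02), CRY1a (24.8) and CRY2b (5.60). Milestone cultivars ranked CRY1d (37.4 FPKM), CRY1c (31.5), CRY2c (30.9), CRY1b (23.8), CRY2a (18.4), CRY1a (13.6) and CRY2b (4.85). CRY1b and CRY2c thus headed the order in soyNAM parents, with CRY1b the higher in 17 of 41 libraries, and CRY1b came after CRY1d, CRY1c and CRY2c in milestone cultivars. CRY2b was last in both. By class, CRY2c was above CRY1b in 11 of 15 LG lines and 6 of 8 PI lines, while CRY1b was above CRY2c in 11 of 18 elite lines. In soyNAM parents the neighbours CRY1b and CRY2c, CRY2a and CRY1c, CRY1c and CRY1d, and CRY1d and CRY1a differed by less than 1 SD of their log2 ratio over libraries. In milestone cultivars this held of 1 pair of neighbours, CRY1c and CRY2c, with CRY1c higher in 33 of 61 libraries. CRY1d was still above CRY1a in 39 of 41 soyNAM libraries, all but Parent and NAM10. Without the 5 libraries that stood apart, the mean log2 ratio of CRY1a over CRY1d in soyNAM parents was -0.32 ± 0.118 (SD).

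**Figure D1:**
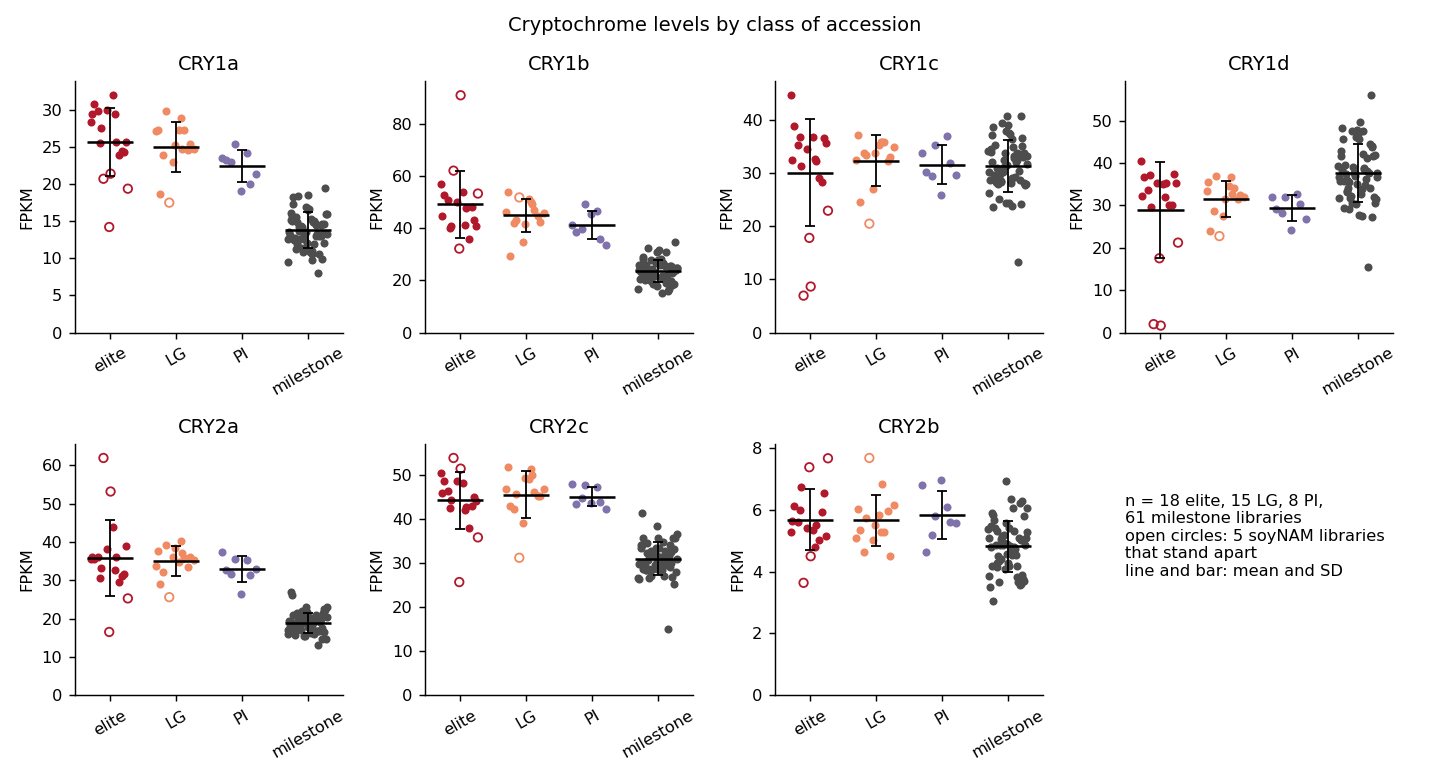
Level of each cryptochrome gene in FPKM (linear axis from 0) in every library, by class, for elite, LG, PI and milestone accessions; lines and bars are means and SDs, and open circles are the 5 soyNAM libraries that stood apart. CRY1a, CRY1b, CRY2a and CRY2c have higher means in all 3 soyNAM classes than in milestone cultivars, while CRY1c overlaps in most libraries. In the 2 elite libraries Parent and NAM10, CRY1c falls to 8.66 and 6.95 FPKM and CRY1d to 1.63 and 1.97 FPKM.

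The first comparison, of soyNAM parents with milestone cultivars, asks how the cryptochromes differ between the 2 collections. Of the 7 genes, 6 passed the test at an adjusted p below 0.05 (limma on log2(FPKM + 1), Benjamini-Hochberg over 30101 genes): CRY1a, CRY1b, CRY2a, CRY2b and CRY2c were higher and CRY1d was lower in soyNAM parents. The background is high, since 74.8% of all genes tested passed in this comparison, 37% higher and 37.8% lower, so the count of 6 says little about cryptochromes. The median log2 fold change was 0.52 over the 7 genes and -0.00 over all genes tested. Each p-value here sets the difference against the spread between accessions, which were sequenced once each.

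CRY1a and CRY1b, which encode CRY1 receptors, were among the larger rises. CRY1b ran from 29.4 over a median of 45.6 to 91.0 FPKM in soyNAM parents, against 14.97, 23.8 and 34.5 FPKM in milestone cultivars. Its highest soyNAM value was that of Parent, and 38 of 41 soyNAM libraries lay above the highest milestone library, all but NAM06, NAM29 and NAM46. CRY1b averaged 46.06 ± 10.02 FPKM in soyNAM parents, against 23.5 ± 4.20 FPKM in milestone cultivars (SD, n = 41 and 61), with a log2 fold change of 0.93 (SE 0.0528, adjusted p = 1.5e-31), and 4.05% of all genes tested had a higher one. CRY1a ran from 14.2 over 24.8 to 32.04 FPKM in soyNAM parents, against 8.05, 13.6 and 19.6 FPKM in milestone cultivars. The groups overlapped through 5 soyNAM libraries, NAM06, NAM11, NAM29, NAM31 and NAM48, and the other 36 lay above every milestone library. CRY1a averaged 24.9 ± 3.92 FPKM in soyNAM parents, against 13.8 ± 2.42 FPKM in milestone cultivars, with a log2 fold change of 0.81 (SE 0.0483, adjusted p = 8.4e-30).

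Of the other CRY1 copies, with all libraries included, CRY1c did not pass the test and CRY1d was lower. CRY1c ran from 6.95 over 33.1 to 44.7 FPKM in soyNAM parents, against 13.3, 31.5 and 40.8 FPKM in milestone cultivars, and 38 soyNAM libraries lay inside the milestone range. Its log2 fold change of -0.05 did not pass the test (SE 0.0722, 95% interval -0.19 to 0.10, adjusted p = 0.560). CRY1d ran from 1.63 over 32.02 to 40.4 FPKM in soyNAM parents, against 15.4, 37.4 and 55.97 FPKM in milestone cultivars, with 39 soyNAM libraries inside the milestone range. CRY1d averaged 30.02 ± 8.01 FPKM in soyNAM parents, against 37.6 ± 6.86 FPKM in milestone cultivars, and its log2 fold change was -0.41 (SE 0.110, adjusted p = 4.98e-04). Both values depended on the libraries that stood apart. With these 5 left out, where 77.4% of genes tested passed, CRY1d was lower by a log2 fold change of -0.19 (adjusted p = 4.34e-04), and CRY1c was higher by 0.10 (adjusted p = 0.0463).

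Among the CRY2 genes, CRY2a moved most. CRY2a ran from 16.5 over 35.3 to 61.9 FPKM in soyNAM parents, against 13.1, 18.4 and 26.8 FPKM in milestone cultivars, and 37 of 41 soyNAM libraries lay above every milestone library. CRY2a averaged 34.96 ± 7.09 FPKM in soyNAM parents, against 18.8 ± 2.62 FPKM in milestone cultivars, with a log2 fold change of 0.85 (SE 0.0467, adjusted p = 2.8e-32). CRY2c, the most abundant CRY2 copy by median, ran from 25.7 over 45.3 to 53.9 FPKM in soyNAM parents, against 15.1, 30.9 and 41.3 FPKM in milestone cultivars. Here too 36 soyNAM libraries lay above the milestone range, and the log2 fold change was 0.52 (SE 0.0390, adjusted p = 4.6e-23). CRY2b, the least abundant cryptochrome, ran from 3.64 over 5.60 to 7.68 FPKM in soyNAM parents, against 3.03, 4.85 and 6.92 FPKM in milestone cultivars. Only 4 soyNAM libraries exceeded the milestone range for CRY2b, and its log2 fold change was 0.21 (SE 0.0403, adjusted p = 3.5e-06). For none of the 7 genes were the collections free of overlap, as they were for 0.249% of genes tested with every soyNAM library higher and for 0.784% with every soyNAM library lower.

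**Figure D2:**
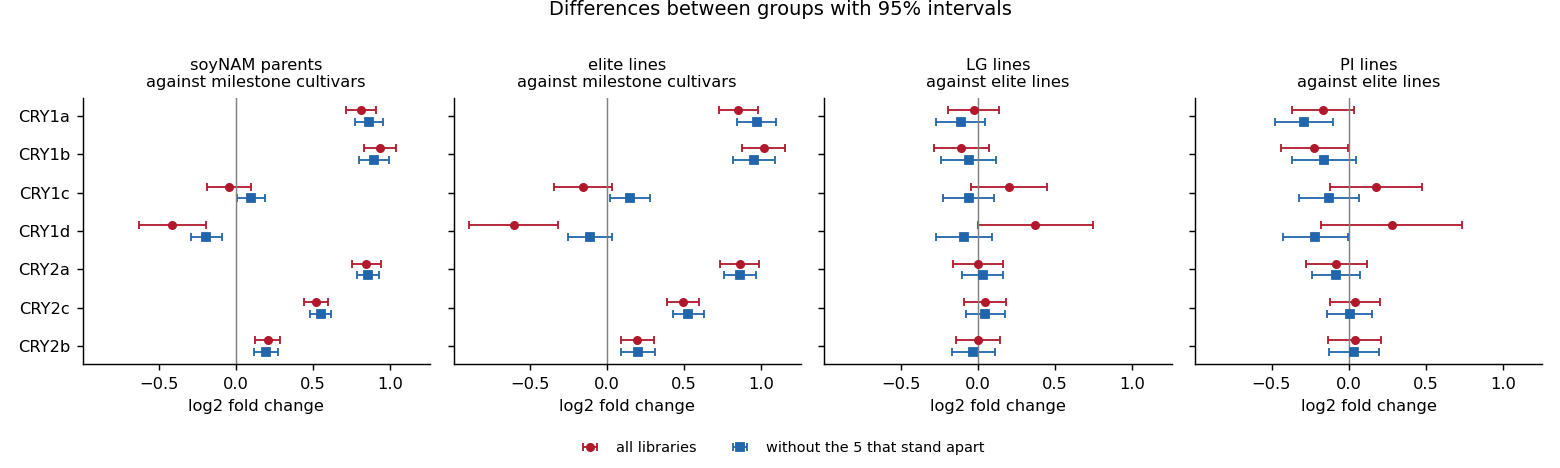
Log2 fold change with its 95% interval (x axis, log2(FPKM + 1) scale) of each cryptochrome in 4 comparisons, with all libraries (circles) and without the 5 soyNAM libraries that stood apart (squares). CRY1a, CRY1b, CRY2a and CRY2c are well above 0 against milestone cultivars with either set of libraries, whereas CRY1c changes side and CRY1d shrinks, from -0.41 with all libraries to -0.19 without the 5.

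The CRY1 copies were most unequal in Parent and NAM10. In Parent, CRY1b was at 91.0 FPKM, CRY1a at 21.4, CRY1c at 8.66 and CRY1d at 1.63 FPKM. In NAM10 the same genes were at 62.1, 20.8, 6.95 and 1.97 FPKM. CRY1c and CRY1d were lower in these 2 libraries than in any milestone library, and CRY2a, at 53.1 FPKM in Parent and 61.9 FPKM in NAM10, was higher there than in any other library. CRY2b was at 4.50 FPKM in Parent and 3.64 FPKM in NAM10, the soyNAM minimum. NAM31, NAM11 and NAM06 differed from these, with the 3 highest CRY2b levels of the series (7.68, 7.67 and 7.38 FPKM), CRY1d at 22.7, 21.2 and 17.5 FPKM and CRY2a at 25.6, 25.3 and 16.5 FPKM. Milestone library 54 was the lowest of its collection for 5 of the 7 genes, with CRY1a at 8.05, CRY1c at 13.3, CRY1d at 15.4, CRY2a at 13.1 and CRY2c at 15.1 FPKM.

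CRY1c and CRY1d followed the dawn gene LHY2b from library to library within each collection, and in soyNAM parents CRY1a did as well. Correlations were computed for 7 genes in 2 collections, 14 relations adjusted together, and soyNAM parents are given without the 5 libraries that stood apart, whose median correlations with the other libraries were 0.662 to 0.773, against 0.826 for the next lowest. By LHY2b level these 5 are not one cluster, and NAM48 and NAM29, which lie near 3 of them, were kept. CRY1d with LHY2b gave a Pearson r of 0.87 and a Spearman rho of 0.85 in 36 soyNAM parents, against 0.83 and 0.79 in 61 milestone cultivars. CRY1c with LHY2b gave an r of 0.77 and a rho of 0.67 in soyNAM parents, against 0.80 and 0.78 in milestone cultivars. For these 4 relations the permutation p of r was 1e-05, the smallest that 100000 resamples can give (adjusted 2.8e-05), and for rho it was 1e-05, or 2.0e-05 for CRY1c in soyNAM parents. After leaving out the 2 libraries farthest from the median LHY2b level, r was 0.83 for CRY1d and 0.65 for CRY1c in soyNAM parents, against 0.77 for CRY1d and 0.76 for CRY1c in milestone cultivars.

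CRY1a with LHY2b gave an r of 0.80 and a rho of 0.75 in 36 soyNAM parents (permutation p = 1e-05, the smallest possible, adjusted 2.8e-05 for r and 3.5e-05 for rho; r 0.71 without the 2 farthest libraries). In milestone cultivars the same relation had an r of 0.00 and a rho of -0.06 (permutation p = 0.971 and 0.623, adjusted 0.971 and 0.726; r -0.14 without the 2 farthest). CRY1b gave an r of 0.51 and a rho of 0.47 in soyNAM parents (adjusted permutation p = 0.00396 and 0.00922; r 0.55 without the 2 farthest), against 0.09 and 0.05 in milestone cultivars (adjusted p = 0.562 and 0.752; r -0.00660 without the 2 farthest). CRY2a gave an r of 0.58 and a rho of 0.40 in soyNAM parents (adjusted permutation p = 3.50e-04 and 0.0286; r 0.28 without the 2 farthest). In milestone cultivars CRY2a gave an r of -0.16 and a rho of -0.29 (adjusted p = 0.265 and 0.0365; r -0.35 without the 2 farthest). The CRY2a relation in soyNAM parents therefore rested in large part on NAM29 and NAM48. Over all 41 soyNAM libraries r was -0.42 for CRY1b (adjusted permutation p = 0.0366) and -0.24 for CRY2a (adjusted permutation p = 0.185), on the other side of 0. For CRY2b and CRY2c no adjusted p of r was below 0.05 in either collection, and CRY2b alone passed on rho, at 0.32 in milestone cultivars (adjusted permutation p = 0.0225) against 0.05 in soyNAM parents (adjusted p = 0.763).

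The slope of each gene on LHY2b was then allowed to differ between the collections, in a limma fit over 30100 genes that was added after seeing the data. In log2 units per log2 unit of LHY2b, CRY1c had a slope of 0.26 in soyNAM parents and 0.57 in milestone cultivars, a difference of -0.30 (SE 0.0536, adjusted p = 1.4e-05). CRY1d had slopes of 0.44 in soyNAM parents and 0.66 in milestone cultivars, a difference of -0.22 (SE 0.0660, adjusted p = 0.00882). These were 2 of 7 genes, against 28.8% of all genes tested, so the count is near the background. Without the 5 libraries the differences were -0.35 for CRY1c and -0.42 for CRY1d (adjusted p = 3.9e-05 and 2.8e-06), and CRY2a passed as well, with slopes of 0.14 in soyNAM parents and -0.09 in milestone cultivars (adjusted p = 0.0261; background 23.3%). Without milestone library 54, CRY1d no longer passed (difference -0.13, adjusted p = 0.207), and the difference for CRY1c was -0.20 (adjusted p = 0.00669). The difference for CRY1a, 0.07 with all libraries and 0.24 without the 5, did not pass (adjusted p = 0.555 and 0.0616), so its slopes are not shown to differ between the collections. Whether its correlations with LHY2b differ was not tested.

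**Figure D3:**
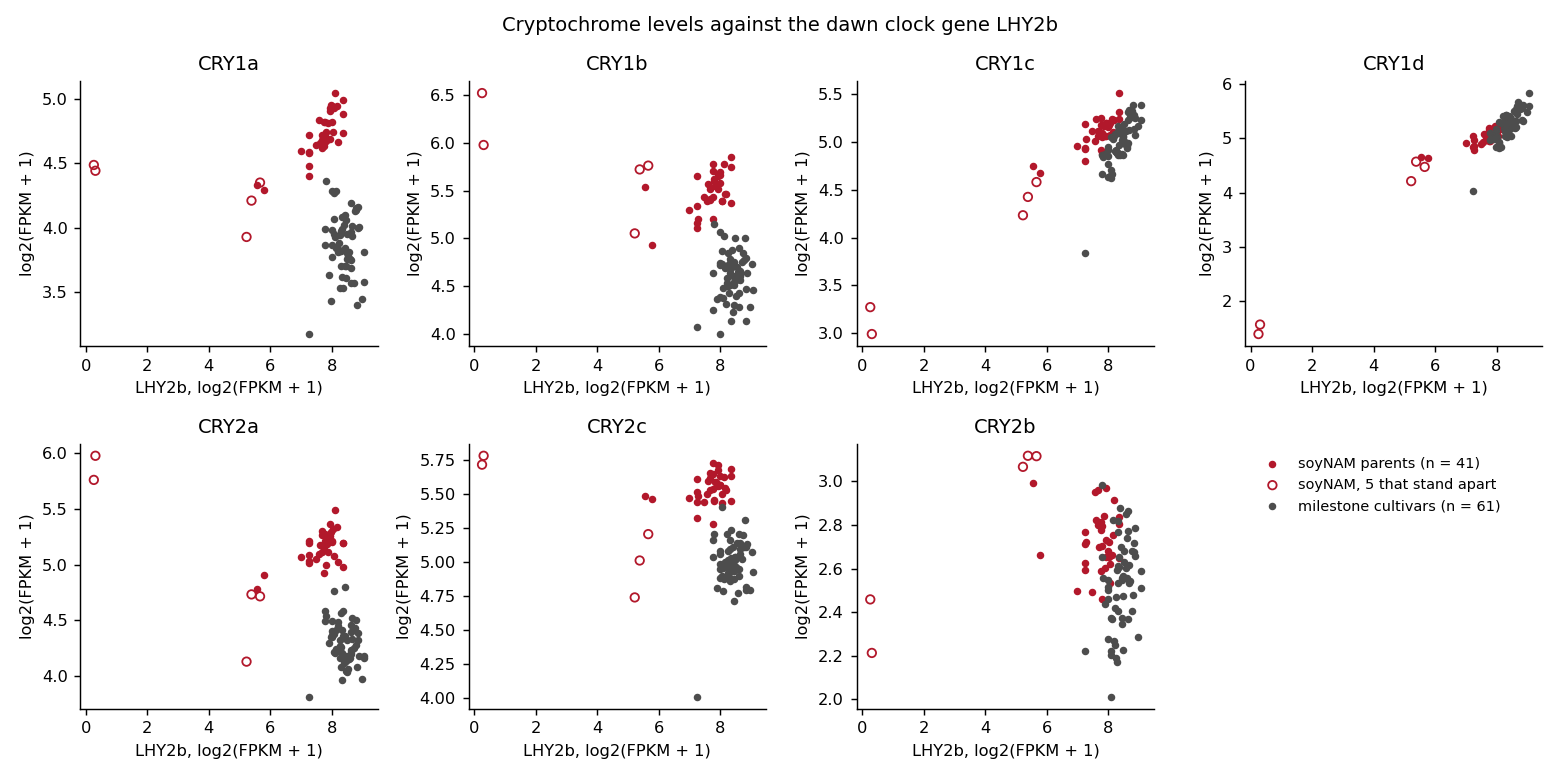
Level of each cryptochrome (y axis) against LHY2b (x axis), both as log2(FPKM + 1), with 1 point per library: soyNAM parents, with the 5 that stood apart as open circles, and milestone cultivars. CRY1c and CRY1d rise with LHY2b in both collections, which overlap in level. Where LHY2b levels are alike, most soyNAM points for CRY1c lie above most milestone points. For CRY1a, CRY1b, CRY2a and CRY2c the soyNAM points lie mostly above the milestone points.

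With the LHY2b level as a covariate, an alternative chosen after seeing the data, all 7 cryptochromes were higher in soyNAM parents than in milestone cultivars. In that fit 75.2% of the 30101 genes tested passed in either direction, 11225 of them higher and 11404 lower. CRY1d turned from lower to higher, with a log2 fold change of 0.15 (SE 0.0415, adjusted p = 0.00107), and CRY1c reached 0.30 (SE 0.0367, adjusted p = 3.0e-12). This fit takes 1 slope on LHY2b for both collections, whereas the slopes of CRY1c and CRY1d differed in the test above, and it includes Parent and NAM10, so both values hold only under that assumption. CRY1a stood at 0.90, CRY1b at 0.86, CRY2a at 0.80, CRY2c at 0.54 and CRY2b at 0.25 in the same fit. LHY2b itself had a median of 215 FPKM in soyNAM parents, against 333 FPKM in milestone cultivars.

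Ratios of copies within a library, taken here as log2 ratios of FPKM + 1, depend little on how libraries are scaled, and 9 pairs were compared, 6 among CRY1 and 3 among CRY2 genes. Some orders were the same throughout the series. CRY1b was above CRY1a in 102 of 102 libraries (mean log2 ratio of CRY1a over CRY1b -0.78 ± 0.239, SD), and CRY2a and CRY2c were each above CRY2b in 102 of 102. CRY2c was above CRY2a in 100 libraries, all but Parent and NAM10, with a mean log2 ratio of CRY2a over CRY2c of -0.56 ± 0.226. For each of these pairs the sign-flip permutation p was 1e-05, the smallest that 100000 resamples can give (adjusted over 9 pairs 1.5e-05).

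The balance between CRY1 copies was turned round between the collections. CRY1b was above CRY1d in 41 of 41 soyNAM libraries, but in 3 of 61 milestone libraries. CRY1b over CRY1d had a mean log2 ratio of 0.70 ± 0.965 in soyNAM parents and -0.65 ± 0.317 in milestone cultivars (SD), and 40 soyNAM libraries lay above the highest milestone library. The difference of 1.35 (SE 0.156) had a permutation p of 1e-05, the smallest possible (adjusted 1.1e-05). Without the 5 libraries that stood apart the soyNAM mean was 0.44 ± 0.155, so the sign was the same with a narrower spread. CRY1b over CRY1c had a mean of 0.58 ± 0.630 in soyNAM parents, where CRY1b was higher in 41 of 41 libraries, and -0.40 ± 0.295 in milestone cultivars, where it was higher in 6 of 61.

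CRY1c and CRY1d, close in level in most libraries, also changed places. CRY1c was above CRY1d in 30 of 41 soyNAM libraries and in 0 of 61 milestone libraries. The mean log2 ratio of CRY1c over CRY1d was 0.12 ± 0.363 in soyNAM parents and -0.25 ± 0.0756 in milestone cultivars, a difference of 0.37 (SE 0.0576, permutation p = 1e-05, the smallest possible, adjusted 1.1e-05), and 38 soyNAM libraries lay above the milestone range. Without the 5 libraries the soyNAM mean was 0.05 ± 0.0801. For CRY1a over CRY1b, in contrast, the difference between collections of -0.13 (SE 0.0525, permutation p = 0.00676) shrank to -0.03 without the 5 libraries (adjusted permutation p = 0.338). All 9 pairs differed between the collections with all libraries, and 8 of 9 did without the 5. With 74.8% of single genes passing in this comparison and no share computed over other pairs of genes, these counts say little about cryptochromes.

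**Figure D4:**
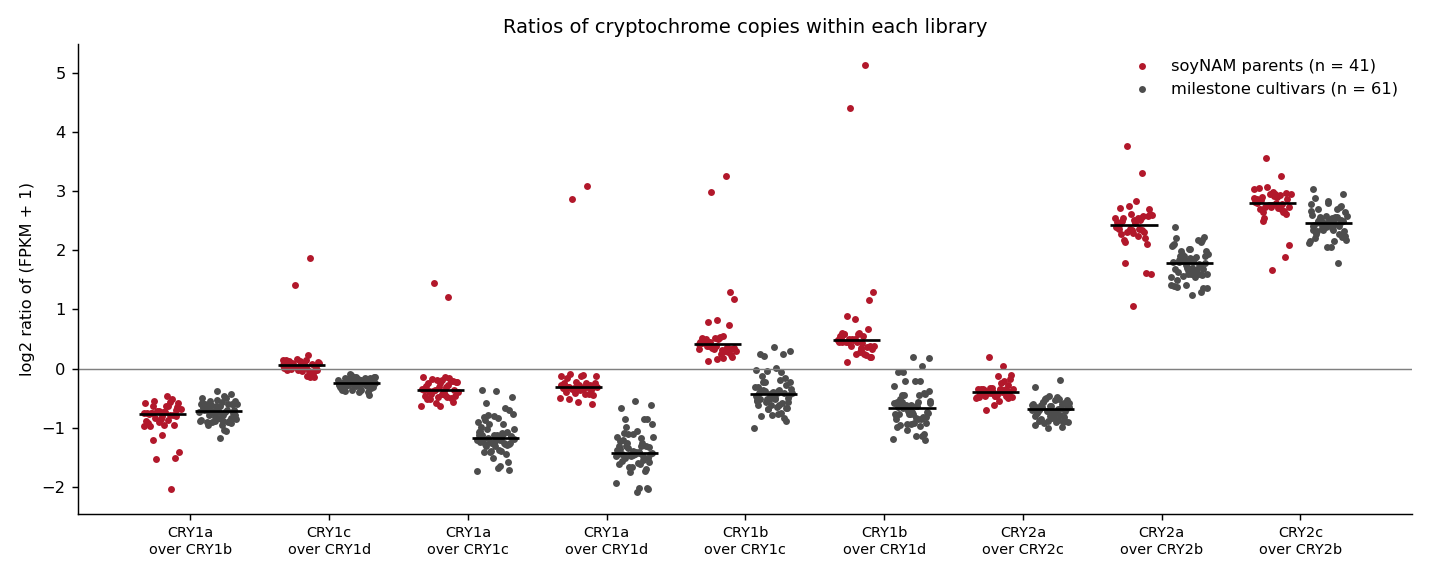
Log2 ratio of (FPKM + 1) of 2 cryptochrome copies in each library (y axis) for 9 pairs, with soyNAM parents left of milestone cultivars and medians as lines. For CRY1b over CRY1d 40 of 41 soyNAM points lie above the highest milestone point, while CRY1a over CRY1b overlaps; the highest points in the CRY1 pairs other than CRY1a over CRY1b are Parent and NAM10.

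Expressed as shares, CRY1a and CRY1b together held 54.1% ± 8.99 of the summed CRY1 FPKM in soyNAM parents, against 35.3% ± 4.97 in milestone cultivars (SD, n = 41 and 61). The soyNAM shares ran from 47.1% in NAM04 over a median of 52.1% to 91.6% in Parent, with 90.3% in NAM10, against 26.3%, 34.3% and 49.1% in milestone cultivars. The soyNAM share without the 5 libraries was 51.5% ± 2.07. The summed CRY1 level was 132 ± 18.3 FPKM in soyNAM parents, against 106 ± 14.3 FPKM in milestone cultivars. For CRY2 the sums were 85.6 ± 11.2 FPKM in soyNAM parents, against 54.7 ± 6.12 FPKM in milestone cultivars. Within CRY2, CRY2a held 40.6% ± 3.23 of the sum in soyNAM parents and 34.4% ± 2.55 in milestone cultivars, and CRY2b held 6.87% ± 1.97 in soyNAM parents, against 8.86% ± 1.41 in milestone cultivars.

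Elite lines against milestone cultivars ask the same question with 1 class of soyNAM parents. Again 6 of 7 genes passed, 5 higher and CRY1d lower, where 68.7% of all genes tested passed, 34% higher and 34.7% lower. CRY1b averaged 49.2 ± 12.9 FPKM in elite lines, against 23.5 ± 4.20 FPKM in milestone cultivars, with a log2 fold change of 1.02 (SE 0.0693). CRY2a stood at 0.86, CRY1a at 0.85, CRY2c at 0.49 and CRY2b at 0.20 on the same scale. CRY1d had a log2 fold change of -0.60 (SE 0.145, adjusted p = 1.41e-04), which did not pass without the 5 libraries that stood apart (-0.11, adjusted p = 0.157; 70.9% of genes tested passed). CRY1c, at -0.16 with all libraries (adjusted p = 0.138), was higher in elite lines without them (0.15, adjusted p = 0.0345). Of those 5 libraries 4 are elite lines.

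LG lines and elite lines were compared next, and 0 of 7 cryptochromes passed, where 0.0266% of all genes tested passed, 8 genes in limma, with 2441 at an unadjusted p below 0.05 and 0 in a rank-sum test. CRY1d averaged 31.6 ± 4.24 FPKM in LG lines, against 28.99 ± 11.4 FPKM in elite lines, a log2 fold change of 0.37 with a 95% interval of -0.00 to 0.75. CRY1c had a log2 fold change of 0.20 (interval -0.04 to 0.45) and CRY1b of -0.11 (interval -0.29 to 0.07). For CRY1a, CRY2a, CRY2b and CRY2c the intervals lay between -0.19 and 0.18. Leaving out the 5 libraries put CRY1d at -0.09 and CRY1c at -0.06, on the other side of 0.

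PI lines against elite lines also gave 0 of 7, where 3.45% of all genes tested passed (1037 genes, 5476 at an unadjusted p below 0.05, 671 in a rank-sum test). CRY1b averaged 41.2 ± 5.48 FPKM in PI lines, against 49.2 ± 12.9 FPKM in elite lines, a log2 fold change of -0.22 with a 95% interval of -0.44 to -0.00 and an adjusted p of 0.265. CRY1a averaged 22.5 ± 2.15 FPKM in PI lines, against 25.8 ± 4.62 FPKM in elite lines, a log2 fold change of -0.17 (interval -0.37 to 0.03). CRY1a passed without the 5 libraries, at -0.29 (SE 0.0943, adjusted p = 0.0324), where 11.7% of genes tested did, with elite lines at 27.7 ± 2.68 FPKM. In the libraries then kept, LHY2b averaged 262 ± 43.2 FPKM in elite lines, against 147 ± 47.7 FPKM in PI lines. CRY1a followed LHY2b in the soyNAM parents kept, and the part of LHY2b in this difference was not tested. CRY2c was the steadiest gene in PI lines, from 42.3 over 44.3 to 47.9 FPKM, against 25.7, 44.7 and 53.9 FPKM in elite lines, and its log2 fold change of 0.04 had an interval of -0.12 to 0.21.

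Spread between accessions also differed among the genes. The coefficient of variation of CRY2c was 11.9% in soyNAM parents and 12.2% in milestone cultivars, where the median gene tested had 28.2% and 24.6%. With the 5 libraries left out it was 7.13% in soyNAM parents, and 0.747% of genes tested had a lower one. With all libraries CRY1d had the highest coefficient of the 7 genes in soyNAM parents, 26.7%, against 18.3% in milestone cultivars. Without the 5 libraries that order did not hold, since CRY1b was at 14.1%, CRY1a at 12.5%, CRY1c at 11.6% and CRY1d at 11.5%.

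Copies were correlated in pairs. Over 9 pairs in 2 collections, 18 relations adjusted together, CRY1c and CRY1d gave a Pearson r of 0.88 and a Spearman rho of 0.81 in 36 soyNAM parents and 0.97 and 0.95 in 61 milestone cultivars (permutation p = 1e-05, the smallest possible, adjusted 2.3e-05 for r and 4.5e-05 for rho; r 0.84 and 0.95 without the 2 farthest libraries). CRY1a and CRY1b gave an r of 0.69 and a rho of 0.66 in soyNAM parents and 0.78 and 0.73 in milestone cultivars (adjusted permutation p at most 1.54e-04). Without the 2 farthest libraries r was 0.70 and 0.74. Over all 41 soyNAM libraries r for CRY1a and CRY1b was 0.27 (adjusted permutation p = 0.0911) and rho 0.35 (adjusted permutation p = 0.0479). CRY2a and CRY2c gave an r of 0.60 and a rho of 0.63 in soyNAM parents and 0.65 and 0.59 in milestone cultivars (adjusted permutation p at most 2.52e-04; r 0.63 in both without the 2 farthest).

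Correlations between copies of different pairs were also computed. CRY1a with CRY1d gave an r of 0.77 and a rho of 0.72 in soyNAM parents (adjusted permutation p = 2.3e-05 and 7.2e-05; r 0.65 without the 2 farthest), against 0.20 and 0.06 in milestone cultivars (adjusted p = 0.145 and 0.703; r 0.03 without the 2 farthest). CRY1b with CRY1c gave an r of 0.71 and a rho of 0.65 in soyNAM parents (adjusted permutation p of r 2.3e-05). In milestone cultivars they were 0.29 and 0.16 (adjusted permutation p of r 0.0354). Without the 2 farthest libraries r was 0.62 in soyNAM parents and 0.08 in milestone cultivars. Leaving out library 54 alone put r at 0.16 in milestone cultivars (adjusted permutation p = 0.286). The milestone relation thus rested in large part on that library. Over all 41 soyNAM libraries r for CRY1b with CRY1c was -0.33 (adjusted permutation p = 0.0607), on the other side of 0, and rho was 0.29 (adjusted permutation p = 0.107). The relation of CRY2b with CRY2a passed in neither collection with the 5 libraries left out, with an r of -0.09 and a rho of -0.02 in soyNAM parents and 0.18 and 0.14 in milestone cultivars (adjusted permutation p of rho 0.921 and 0.342; r 0.12 and 0.20 without the 2 farthest). Over all 41 soyNAM libraries r was -0.63 (adjusted permutation p = 6e-05) and rho -0.33 (adjusted permutation p = 0.0597), a relation that rested on those 5 libraries. CRY2b with CRY2c passed in milestone cultivars but not in soyNAM parents without the 5. Its r was 0.32 and its rho 0.32 in soyNAM parents (adjusted permutation p = 0.0753 and 0.0910; r 0.23 without the 2 farthest), against 0.35 and 0.39 in milestone cultivars (adjusted permutation p = 0.00807 and 0.00340; r 0.37 without the 2 farthest). Over all 41 soyNAM libraries its r was -0.43 (adjusted permutation p = 0.0107). Whether these correlations differ between the collections was not tested.

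**Figure D5:**
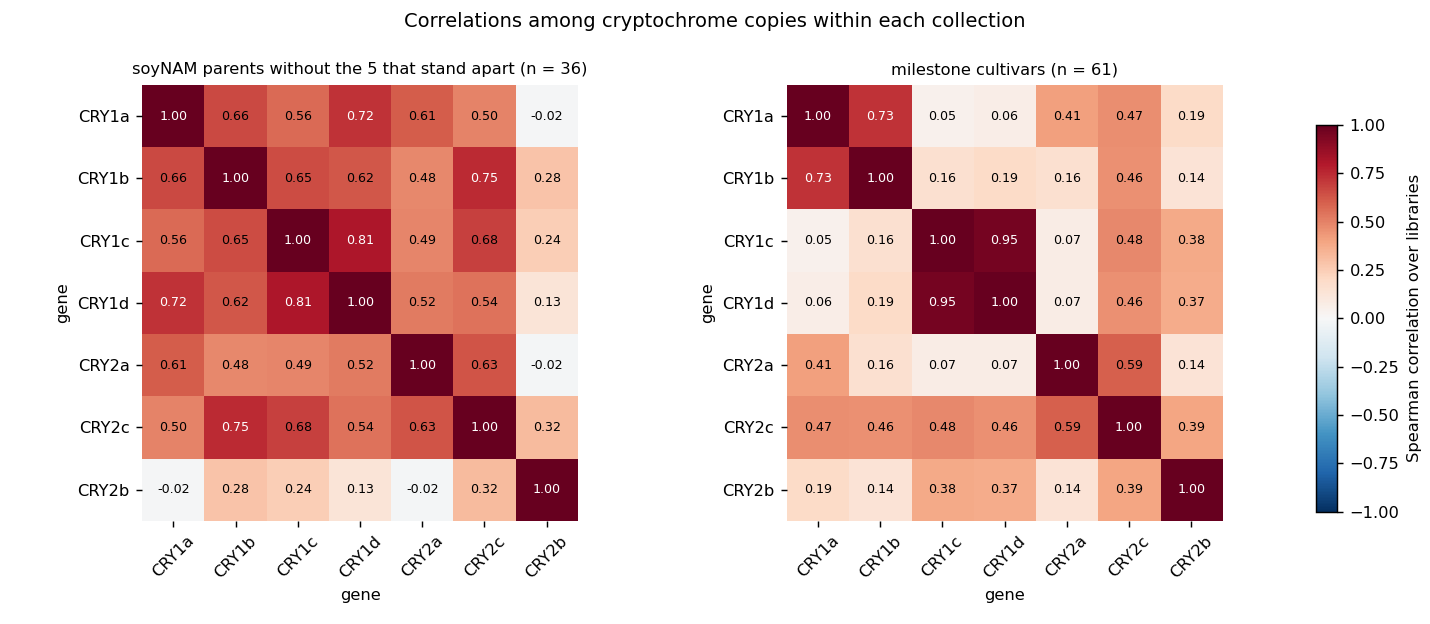
Spearman correlations among the 7 cryptochromes over libraries, for soyNAM parents without the 5 that stood apart (left) and milestone cultivars (right). CRY1c with CRY1d is the highest value in both panels, 0.81 in soyNAM parents and 0.95 in milestone cultivars, and CRY1a with CRY1d is 0.72 in soyNAM parents but 0.06 in milestone cultivars.

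Among 30100 other genes tested, likeness to each cryptochrome was measured by the lower of its Spearman correlations over 41 soyNAM and over 61 milestone libraries. CRY1c and CRY1d were each other's most similar gene, at 0.87, and LHY2b ranked 27 for CRY1c and 17 for CRY1d. CRY2c was the gene most like CRY2a, at 0.59, while CRY2a ranked 3 for CRY2c behind Glyma.14G071700, at 0.61. The gene most like CRY1a was Glyma.02G298000, at 0.78, and CRY1b ranked 530 for it. All these ranks include the 5 libraries that stood apart and were not computed without them, which matters for CRY1b, whose rho with CRY1a was 0.35 over 41 soyNAM libraries, against 0.66 over the 36 without them. The gene most like CRY1b was Glyma.01G221500, at 0.68, and that most like CRY2b was Glyma.10G028800, at 0.54. These 4 IDs carry no name in the sources used here.

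Other genes of the light and flowering pathway were taken from a list of 10: the phytochromes E3, E4, PHYA1, PHYA4, PHYB1 and PHYB2, the GIGANTEA homologue E2, the legume flowering repressor E1, and the florigen genes FT2a and FT5a. Of these 9 passed the filter, E1 being too low, and 8 were higher and 0 lower in soyNAM parents than in milestone cultivars, where 37% of all genes tested were higher; the median log2 fold change over the 9 was 0.59. E3 was the one that did not pass, at 3.13 ± 0.559 FPKM in soyNAM parents, against 3.16 ± 0.752 FPKM in milestone cultivars. PHYA1, a far-red light receptor, averaged 15.1 ± 4.10 FPKM in soyNAM parents, against 8.69 ± 1.37 FPKM in milestone cultivars, and PHYB2, a red light receptor, 6.33 ± 1.29 FPKM in soyNAM parents, against 4.35 ± 0.569 FPKM in milestone cultivars. In LG lines against elite lines 0 of the 9 passed, and in PI lines against elite lines FT5a was lower, at 0.662 ± 0.587 FPKM in PI lines, against 3.38 ± 2.26 FPKM in elite lines.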

How the data were processed

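The deposited table gives FPKM per gene and library as made by the authors. Per the submitters' processing notes, Trimmomatic 0.32, STAR 2.4.1c and Cufflinks 2.2.1 were used. The gene IDs of the deposited table carry an annotation version as a suffix, Wm82.a2.v1. The genome build used for mapping and the use of strand are not otherwise given in the sources used here. Reads of antisense or overlapping genes and of near-identical copies therefore cannot be told apart. Library depth is unknown, and no counting interval is given.

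Values were analysed as log2(FPKM + 1), a scale that understates changes of low genes, with limma 3.58.1 in R 4.3.3 (mean trend, 2-sided). The collections were compared in a fit of 2 groups, and single classes in a fit of 4. Copy ratios and correlations used 2-sided permutation tests of 100000 resamples. All were checked on simulated data. The members, the gene lists, the 5 libraries set apart and the alternatives were chosen with earlier results of these data known. All members were named, with the light list and the gene most like each member; names for HY5-type and COP1 genes could not be tied to IDs and were not used here. Alternatives varied pseudocount, filter, scaling, libraries and test.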

Additional observations from a re-analysis of the deposited data

Results flagged for a closer look

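The slope of CRY1c on the dawn gene LHY2b was 0.26 in soyNAM parents and 0.57 in milestone cultivars (log2 units per log2 unit), and the difference of -0.30 passed a limma test of the difference itself (adjusted p = 1.4e-05, 41 and 61 libraries). Without milestone library 54 the difference was -0.20 (adjusted p = 0.00669).

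For CRY1d the slopes were 0.44 in soyNAM parents and 0.66 in milestone cultivars, and the difference of -0.22 passed the same test (adjusted p = 0.00882). Without milestone library 54 it was -0.13 and did not pass (adjusted p = 0.207). Of all genes tested 28.8% passed this test with all libraries, and 2 of the 7 cryptochromes did, so the count is near the background. The LHY2b levels covered unlike ranges, from 0.196 to 326 FPKM in soyNAM parents and from 150 to 531 FPKM in milestone cultivars, and the part of this in the differences of slope was not tested.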

How the results depend on the processing

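No paired analysis was possible because each accession has 1 library and no replicate number joins the collections. The counts of cryptochromes called were within 1.5 times under every alternative, except that 1 was called in PI against elite lines without the 5 libraries that stood apart. Counts over all genes moved more. With a mean of at least 5 FPKM, where 16427 genes were tested, 12573 genes were called for soyNAM parents and 11596 for elite lines against milestone cultivars. The main fits called 22508 and 20679 of 30101 genes tested. With no filter 29355 and 26415 of 52945 genes tested were called. The number of genes tested thus moved along with the number called. For LG against elite lines, with 8 genes called, the count was 4 and 5 with pseudocounts of 0.1 and 0.01, 14 with no filter, 4 with median-of-ratios scaling, 3 with quantile normalization, 109 without the 5 libraries, 0 with only the 2 classes in the fit, 15 with LHY2b as a covariate and 0 with a rank-sum test. For PI against elite lines, with 1037 called, it was 3515 without the 5 libraries, 290 with only the 2 classes, 1692 with LHY2b and 671 with the rank-sum test.

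Signs turned as follows, with log2 fold changes. CRY1c in soyNAM parents against milestone cultivars was 0.10 without the 5 libraries, 0.0461 without Parent and NAM10 and 0.30 with LHY2b, and ran from -0.0613 to 0.00181, its value without NAM10, in the leave-one-out fits. CRY1d was 0.15 with LHY2b. In elite lines against milestone cultivars CRY1c was 0.15, 0.0576 and 0.27 under these 3 settings, and CRY1d was 0.0713 with LHY2b. In LG against elite lines, CRY1c was -0.0593 and CRY1d -0.0883 without the 5 libraries, and -0.0109 and -0.0210 without Parent and NAM10. CRY2a was -5.43e-04 with median-of-ratios scaling and -0.0202 with quantile normalization. CRY2b was -0.00254 with median-of-ratios scaling, -0.0297 without the 5 libraries, -0.0472 without Parent and NAM10 and -0.0192 with LHY2b. In PI against elite lines CRY1c was -0.13 and CRY1d -0.22 without the 5 libraries, and -0.0355 and -0.12 without Parent and NAM10, where CRY2a was 0.00930 and CRY2b -0.00994. None of these LG and PI values passed the test.

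In soyNAM libraries alone the copy ratios were 0.12 for CRY1c over CRY1d, 0.58 for CRY1b over CRY1c and 0.70 for CRY1b over CRY1d, against -0.10, -0.01 and -0.11 over all 102 libraries. The Spearman correlation of CRY2b with CRY2c in soyNAM parents was 0.32 without the 5 libraries and -0.10 with them, and that of CRY2b with LHY2b was 0.0523 and -0.00836. The Spearman correlation of CRY1c with CRY1a in milestone cultivars was -0.00211 without library 54. The difference of slopes on LHY2b was 0.11 for CRY1b without the 5 libraries and 0.0112 for CRY2c without library 54. The cause was not tested for any of these. Unknown depth limits what can be said of CRY2b, the lowest gene.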
